A study of Rattus norvegicus with 4 samples.

Results

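The genes described here serve the presentation of antigen on major histocompatibility complex (MHC) class II molecules, in the small intestine of rats that drank compost extract. They were fixed as 10 named genes: the classical chain genes RT1-Ba, RT1-Bb, RT1-Da and RT1-Db1, the chaperone and peptide-editor genes Cd74, RT1-DMa, RT1-DMb and RT1-DOa, the transactivator gene C2ta (now Ciita) and the costimulatory receptor gene Cd40. Matching these names to the gene names printed on the array found 7 genes and 12 probes. RT1-DMa and Cd40 are listed there under older names, Hla-dma and Tnfrsf5, and were added by RefSeq accession with 3 further probes, while RT1-DMb was not matched. This gave 9 genes and 15 probes of the 41012 gene probes on the array. Membership rests on gene name or accession.

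The study compared 2 groups of 2 male Wistar rats, an outbred stock, and each rat was hybridised to its own 1-colour Agilent array. Control rats had plain tap water. Compost rats had tap water with 1% (v/v) of a heated, watery dilution of a commercial fermented compost, from 3 weeks of age for 12 weeks. RNA came from the small intestine with Peyer's patches left out, and the labels name neither the segment nor the RT1 haplotype of any rat. The label of small intestine was borne out by the enterocyte genes Vil1 and Fabp2, which were well above background on all 4 arrays. Their scaled intensities were 56900 to 81920 and 275300 to 395700. These genes do not bear on the Peyer's patches, and genes of lymphoid follicles are described below.

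Class II molecules display peptides from ingested proteins to CD4+ helper T cells. The classical RT1.B and RT1.D molecules are pairs of an alpha and a beta chain. They are held by the invariant chain, the product of Cd74, until DM exchanges its remnant for antigenic peptide in the endosome, and DO restrains DM, chiefly in B cells. C2ta encodes CIITA, the coactivator on which class II transcription depends. Professional presenting cells, namely B cells, dendritic cells and macrophages, carry most class II, and small intestinal enterocytes also express it. Cd40 is the receptor through which helper T cells licence B cells and dendritic cells.

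The promoters of the class II genes share letters of the X and Y boxes, the elements that the RFX and NF-Y factors occupy and CIITA joins. The stretches below show this shared layout for the 6 members in which it was found. They run 5′ to 3′ on the gene's strand in RefSeq sequence of the GRCr8 build, with the X letters first and the Y letters second in capitals.
RT1-Ba, chr20:4576973-4577022, plus strand: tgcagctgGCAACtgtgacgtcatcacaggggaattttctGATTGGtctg
RT1-Bb, chr20:4604171-4604219, minus strand: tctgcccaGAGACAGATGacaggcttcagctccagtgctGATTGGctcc
RT1-Da, chr20:4515325-4515374, plus strand: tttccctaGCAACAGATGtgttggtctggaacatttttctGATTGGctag
RT1-Db1, chr20:4560234-4560282, minus strand: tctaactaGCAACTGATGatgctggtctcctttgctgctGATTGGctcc
RT1-DMa, chr20:4712391-4712440, minus strand: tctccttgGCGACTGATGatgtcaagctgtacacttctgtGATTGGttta
RT1-DOa, chr20:4758522-4758571, minus strand: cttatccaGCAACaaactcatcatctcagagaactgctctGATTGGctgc

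In each of these windows the first Y letter lay 31 or 32 bases after the first X letter. The letters searched were GATTGG for the Y box, and GCAAC or a longer form for the X box, namely G, any 2 bases, AC, any base and GATG, and the X forms can overlap. They were chosen after reading these promoters, so the count of member promoters below is no test of enrichment. A pair was counted where the first X letter lay 15 to 40 bases ahead of the first Y letter on the same strand, either strand allowed. Within the 250 bases before the start, 6 of the 7 member promoters available held such a pair. Of all 33469 promoters 0.305% did. GATTGG alone was present in 13.3% of promoters, GCAAC in 29.5% and the longer X form in 2.26%. The 7th promoter was that of Cd74. The match describes letters and does not show that a factor was bound in these rats.

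On these arrays Cd40 and the DO alpha gene RT1-DOa were higher in both compost rats than in both control rats. The same held by narrow margins of 0.04 to 0.10 log2 units on both RT1-Bb probes and RT1-Da probe A_44_P991532. Estimated differences were small for the classical chain genes, Cd74, RT1-DMa and C2ta. Their 95% intervals were wide, up to 1.84-fold for RT1-Ba, and the contrast with Cd40 and RT1-DOa was not tested. Cd40 was 1.83-fold and 2.48-fold higher by its 2 probes and RT1-DOa was 1.53-fold higher. The 8 classical chain probes tested differed by 1.03-fold to 1.18-fold. No member probe passed limma's test after Benjamini-Hochberg adjustment, as no probe did among all 28415 tested (0.0% called). Unadjusted p was under 0.05 for 3 of the 14 member probes tested, both of Cd40 and that of RT1-DOa, all higher in compost. Of all probes 1.41% were higher and 1.8% lower with such a p. The member count was 2 with normexp background correction, with dim probes kept, with a variance trend and with the replicate block. In these fits only the Cd40 probes had such a p. Without control replicate 2 the member count was 1. With 2 rats against 2, an exact two-sided permutation test of a single value cannot give a p below 0.333.

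Of the 15 member probes, 14 passed the filter, which asked for signal well above background on at least 2 arrays, and all 14 did so on every array. None was saturated on any array. The exception was 1 of the 2 RT1-Ba probes, A_44_P128248, which was not well above background in any rat. On 6 of the 14 probes the lower compost rat exceeded the higher control rat, and on 0 the reverse held, against 12.4% and 15.5% of all probes tested. The mean was higher in compost for 13 of the 14, against 46.2% of all probes. The median log2 difference was 0.17 over the member probes and -0.02 over all probes. Compost replicate 1 was the highest of the 4 rats on 6 of the 14 probes and compost replicate 2 on another 6, against 27.4% and 29.9% of all probes. Control replicate 2 was the lowest rat on 8 of the 14 and control replicate 1 on 5, against 3995 and 6882 of all 28415 probes. Several of these probes belong to 1 gene and all come from the same 4 rats, so they are not independent. Levels below are scaled intensities: each array's processed intensity divided by its 75th percentile over gene probes and multiplied by a constant common to all arrays.

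**Figure D1:**
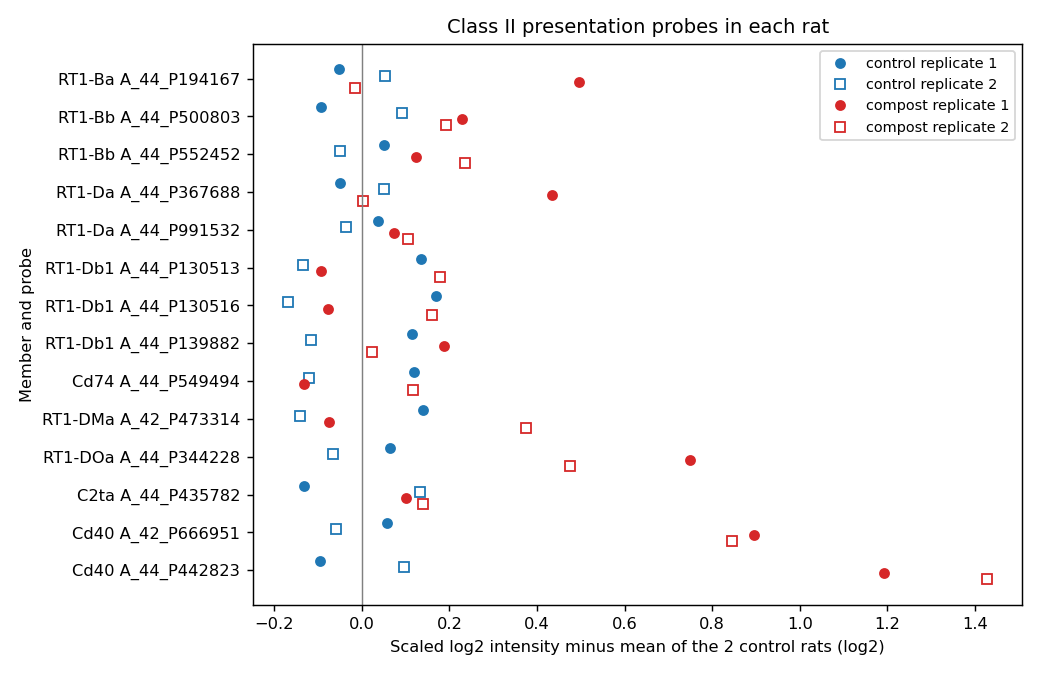
Scaled log2 intensity of each of the 14 tested member probes in each rat, minus the mean of the 2 control rats for that probe (x axis, log2; filled symbols are replicate 1 and open symbols replicate 2, blue control and red compost). The compost rats stand 0.79 and 1.10 log2 units clear of the control rats for the Cd40 probes and 0.41 for RT1-DOa, and the groups overlap or nearly touch for the other probes.

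Cd40 gave the widest separation among the members. On probe A_42_P666951 its scaled intensity was 741 and 684 in the control rats and 1324 and 1280 in the compost rats. The 2 compost rats were close together and well above both control rats. The log2 difference was 0.87 ± 0.18 (SE of limma, n = 2 and 2; adjusted p = 1.00 by limma, unadjusted p = 0.00531), with a 95% interval of 1.33-fold to 2.52-fold. The dimmer Cd40 probe, A_44_P442823, read 38.6 and 44.0 in the control rats and 94.2 and 111 in the compost rats. Its groups were also apart, and its log2 difference was 1.31 ± 0.20 (SE, adjusted p = 0.852 by limma). This probe lay near background, and with normexp background correction its log2 difference was 0.67 while that of the brighter probe was 0.82.

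RT1-DOa, the alpha chain of the DM inhibitor DO, was dim. Its scaled intensity was 51.3 and 46.9 in the control rats and 82.4 and 68.2 in the compost rats, so that the groups did not overlap. The log2 difference was 0.61 ± 0.20 (SE, adjusted p = 1.00 by limma, unadjusted p = 0.0301). With normexp background correction it was 0.24, with an unadjusted p of 0.172 by limma. The unadjusted limma p was 0.0514 with dim probes kept, 0.0648 with a variance trend and 0.0502 with the replicate block. Its partner gene RT1-DOb, which is no member, read 80.9 and 52.2 in the control rats against 83.1 and 76.9 in the compost rats. There the lower control rat alone stood apart, and the log2 difference was 0.30 ± 0.27 (SE).

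The other chaperones showed no such separation. Cd74 read 232700 and 197100 in the control rats and 195600 and 232400 in the compost rats. Each group held a higher and a lower rat at nearly the same levels, and the log2 difference was -0.0064 ± 0.21 (SE), with a 95% interval of 0.684-fold to 1.45-fold. Its sign was opposite with normexp background correction and with quantile or median scaling. RT1-DMa, the alpha chain of the peptide exchanger DM, read 21340 and 17550 in the control rats and 18370 and 25110 in the compost rats. Compost replicate 2 was the highest and the other compost rat lay between the control rats, and the log2 difference was 0.15 ± 0.24 (SE), or -0.07 without compost replicate 2 and 0.0097 without control replicate 2.

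C2ta, the class II transactivator gene, read 1402 and 1684 in the control rats and 1647 and 1694 in the compost rats. Control replicate 1 was lower than the other rats, which were alike. The log2 difference was 0.12 ± 0.19 (SE), with a 95% interval of 0.765-fold to 1.55-fold, and it was -0.01 without control replicate 1.

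**Figure D2:**
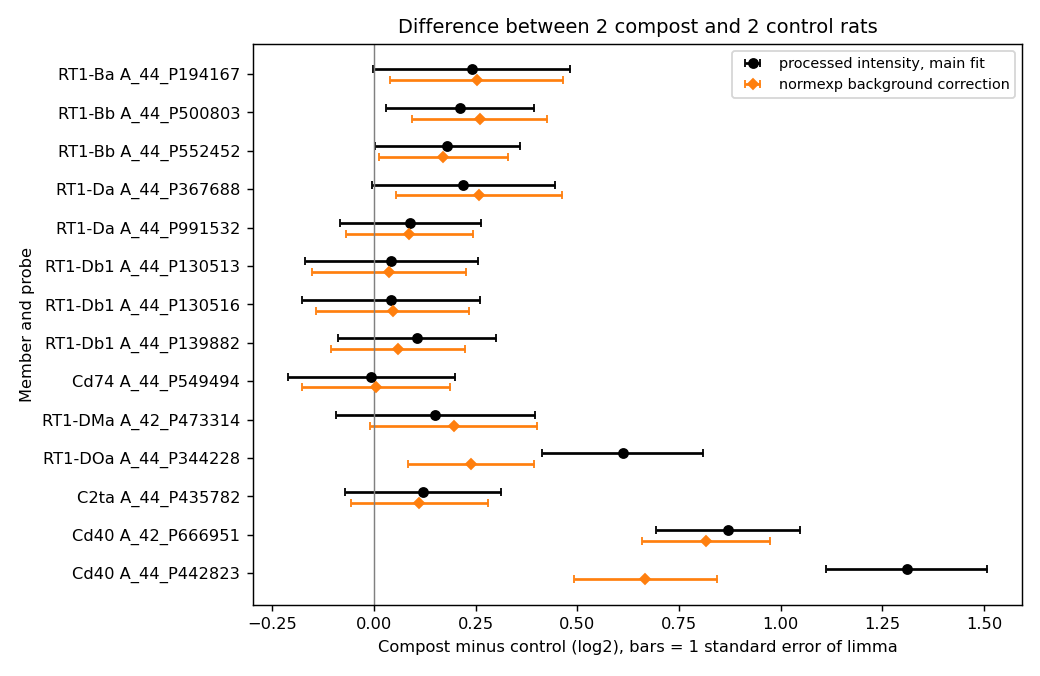
Compost minus control for each tested member probe (x axis, log2; bars are 1 standard error of the limma fit, 2 rats in each group) from the processed intensities (black circles) and after normexp background correction (orange diamonds). Estimates for the bright chain probes nearly coincide, whereas those for the dim probes of RT1-DOa and Cd40 are 0.61 against 0.24 and 1.31 against 0.67.

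Among the classical chains, the beta chain gene RT1-Bb was the one whose groups did not overlap on either of its probes. Probe A_44_P552452 read 70290 and 65620 in the control rats and 73970 and 79960 in the compost rats. The lower compost rat exceeded the higher control rat by 0.07 log2 units, which is less than the 0.10 between the control rats. The log2 difference was 0.18 ± 0.18 (SE). On probe A_44_P500803 the rats read 9843 and 11200 against 12310 and 12000, with a log2 difference of 0.21 ± 0.18 (SE).

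RT1-Ba, the alpha chain gene of the same RT1.B molecule, read 5530 and 5946 in the control rats and 8088 and 5672 in the compost rats on probe A_44_P194167. Compost replicate 1 stood above the other rats, while compost replicate 2 lay between the control rats. The log2 difference was 0.24 ± 0.24 (SE), and -0.02 without compost replicate 1. The second RT1-Ba probe, not well above background in any rat, read 3.22 to 4.84 and gives no comparison.

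The RT1.D chains were as close. For the alpha chain gene RT1-Da, probe A_44_P991532 read 103900 and 98800 in the control rats and 106500 and 109000 in the compost rats. The whole span over the 4 rats was narrow, and the log2 difference was 0.09 ± 0.17 (SE). Probe A_44_P367688 read 11870 and 12720 against 16610 and 12320, so that compost replicate 1 was high on this probe alone. Its log2 difference was 0.22 ± 0.22 (SE), and 0.0039 without compost replicate 1.

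The beta chain gene RT1-Db1 had 3 probes. Probe A_44_P130513 read 112800 and 93540 in the control rats and 96230 and 116300 in the compost rats, with a log2 difference of 0.04 ± 0.21 (SE). Probe A_44_P130516 read 101000 and 79960 against 85140 and 100400 (0.04 ± 0.22 SE). On both probes control replicate 1 and compost replicate 2 were the higher rats, though not in the same order. Probe A_44_P139882 read 404 and 345 against 425 and 379 (0.11 ± 0.20 SE). All 3 probes overlapped between the groups, and on each of them the log2 difference was negative without control replicate 2.

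The 95% intervals of the 8 classical chain probes ran from 0.690-fold at the lowest bound to 1.84-fold at the highest. Differences between the groups within that span, in either direction, were therefore not resolved by 2 rats a group. Over these 8 probes the median position relative to the control mean was 0.16 log2 units in compost replicate 1 and 0.13 in compost replicate 2, against 0.04 and -0.04 in the control rats.

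Classical chain genes are highly polymorphic, and a probe can read an allele less well where the sequence differs. Probes of 1 gene can therefore differ in how they rank the rats. The bright RT1-Db1 probes kept nearly the same distance from each other over the rats, within 0.07 log2 units. The distance between the RT1-Da probes varied by 0.46 log2 units and that between the RT1-Bb probes by 0.29, and the distance of the third RT1-Db1 probe from the others varied by 0.40 and 0.44. For Cd40 the distance between its bright and its dim probe varied by 0.74, and the dim probe lay near background. The part of haplotype in any of these values was not tested. Because the groups are so small, a haplotype shared within a group by chance cannot be told apart from the treatment.

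Another 6 probes described on the array as class II sequences, or by likeness to one, carry no member's name and were looked at after their values were seen. A probe made from an RT1-D beta1 chain of haplotype k read 387 and 324 in the control rats and 363 and 357 in the compost rats. It varied by 0.25 log2 units over the 4 rats, and the log2 difference was 0.03 ± 0.19 (SE). The probe with the widest variation among those above background was described only by a partial (5%) match to a class II alpha subunit. It read 1238 and 958 in the control rats and 600 and 1213 in the compost rats. Compost replicate 1 was its lowest rat, and whether this probe reads a rat class II gene was not tested. The group difference was -0.35 ± 0.39 (SE).

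The transcription machinery shared by class II genes was split. Of its 10 genes 4 were higher and 6 lower in compost (46.5% of all genes were higher), with a median log2 difference of -0.06 against -0.02 over all 24313 genes, and the groups were apart with compost above in 2 genes and below in 1, against 12.7% and 15.2% of all genes. The values with the smallest p were -0.20 ± 0.21 (SE) for Rfxap, a subunit of the X box factor, -0.18 ± 0.18 for Crebbp, a histone acetyltransferase, 0.17 ± 0.19 for Creb1 and 0.20 ± 0.24 for Nfya, a subunit of the Y box factor. Every difference of these 4 was close to or below its standard error.

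Genes for the endosomal proteases and processing factors had more higher than lower values. Of 13 genes 10 were higher in compost (46.5% of all genes), and in 7 the groups were apart with compost above (12.7% of all genes). None passed the test, and the median log2 difference was 0.20. Legumain, Lgmn, which cuts antigens and the invariant chain, read 5499 and 5300 in the control rats and 9726 and 7111 in the compost rats. Its log2 difference was 0.62 ± 0.23 (SE, adjusted p = 1.00 by limma, unadjusted p = 0.0441). The cathepsin genes Ctsz, Ctsh and Ctse had log2 differences of 0.68 ± 0.25, 0.42 ± 0.18 and 0.56 ± 0.26. Genes of class II trafficking and turnover were 7 higher and 4 lower with a median of 0.06. Of these, Marchf8, a ubiquitin ligase, was at -0.32 ± 0.21 and the endosomal tetraspanin gene Cd63 at 0.17 ± 0.18.

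Interferon gamma is the main inducer of C2ta outside B cells and dendritic cells. The transcript of Ifng read 40.9 and 39.1 in the control rats and 90.4 and 63.1 in the compost rats, with groups apart and a log2 difference of 0.92 ± 0.24 (SE, adjusted p = 1.00 by limma, unadjusted p = 0.0148). The induced guanylate-binding protein gene Gbp2 read 3989 and 3507 against 10390 and 4025, so that 1 compost rat carried its difference of 0.79 ± 0.48. Of the 9 genes of this axis 7 were higher and 2 lower, with a median of 0.13. Leaving out compost replicate 2 gave a median of 0.36, and leaving out control replicate 2 gave 0.04. The members Cd74 and C2ta lay at -0.0064 and 0.12 beside these genes.

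Costimulatory and helper T cell genes had values for 9 of 15 genes, of which 6 were higher and 3 lower in compost, with a median log2 difference of 0.31 (0.10 with normexp background correction). The largest difference was that of Lag3, a class II-binding inhibitory receptor of T cells, at 120 and 128 in the control rats and 376 and 313 in the compost rats. Its groups were far apart, and its log2 difference was 1.47 ± 0.20 (SE, adjusted p = 0.662 by limma). Icos and Tnfsf4, which encode a T cell costimulator and the OX40 ligand, were at 0.96 ± 0.28 and 0.75 ± 0.25, and Tnfsf4 was well above background in 1 control rat. Cd40lg, the ligand of Cd40, and Cd80, Cd28 and Cd4 were not well above background on 2 arrays and were not tested. In the short list of the interleukin 4 axis, a second inducer of class II in B cells, 3 of 4 genes tested were higher, with Fcer2 at 0.86 ± 0.52 and Il4 at -0.59 ± 0.46.

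**Figure D3:**
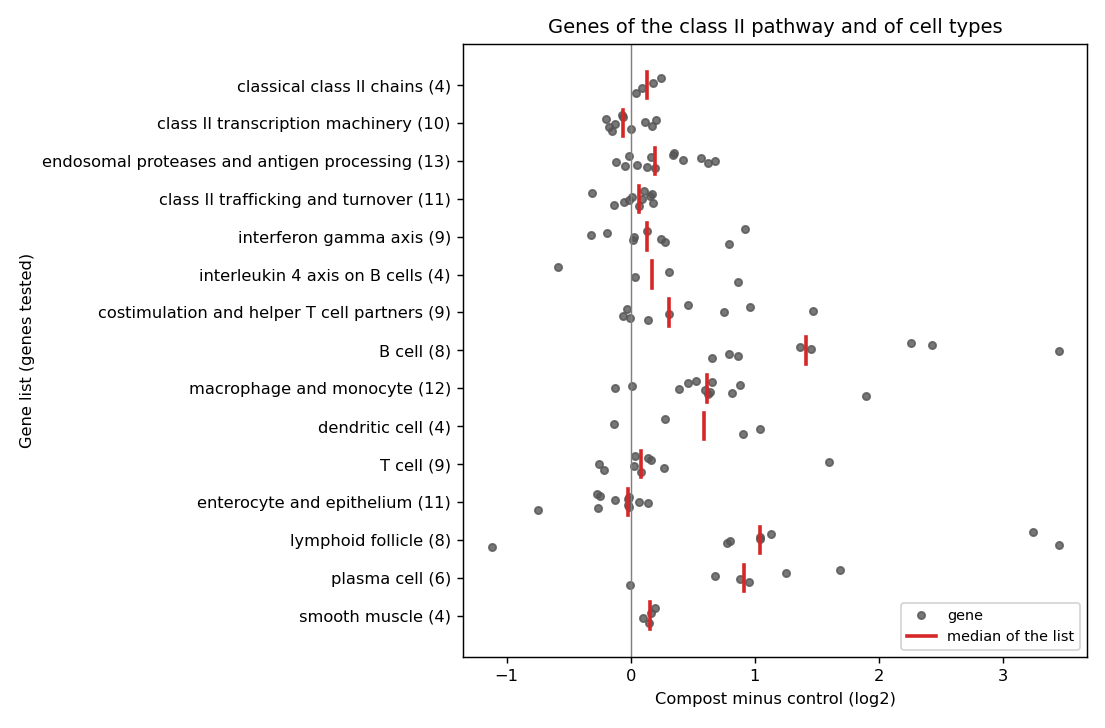
Compost minus control for every tested gene of each list (x axis, log2; grey points are genes, red bars are list medians, and the number of genes tested is in parentheses). The medians of the class II and processing lists lie between -0.06 and 0.31, and those of B cell, follicle and plasma cell markers between 0.91 and 1.41. The macrophage and monocyte median is 0.61. The B cell and follicle lists each hold 2 genes that passed the filter through the compost rats alone. Over genes well above background on all 4 arrays their medians are 0.86 and 1.04.

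Markers of presenting cells also differed between the groups, and their part in the members' differences was not tested. The marker lists were chosen with earlier results of these data known. Of 12 B cell markers, 5 were well above background on all 4 arrays. All 5 had a higher mean in compost (46.5% of all genes), 4 of them with groups apart (12.7% with compost above). Their median log2 difference was 0.86. Another 3 were tested, of which Ms4a1 and Cr2 passed the filter through the compost rats alone and so had to differ. Over all 8 the median was 1.41, or 0.57 with normexp background correction, 0.88 without compost replicate 2 and 1.82 without compost replicate 1. Their summed scaled intensity was 465 and 466 in the control rats and 774 and 2356 in the compost rats. Ms4a1, a B cell surface marker gene, read 6.94 and 12.1 in the control rats, in neither well above background. It read 17.0 and 112 in the compost rats. Its compost mean was at least 2.62-fold higher, a bound set mainly by compost replicate 2. Cd79b, a subunit of the B cell receptor, read 71.2 and 113 in the control rats and 263 and 883 in the compost rats. Cd72 had a log2 difference of 1.45 ± 0.42 (SE) and Cd22 one of 1.37 ± 0.30, with control signal well above background in 1 rat. In bulk tissue, more cells of a type and more RNA per cell cannot be told apart.

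The compost rats were not in the same order in every list. Over the 8 tested B cell markers, Ms4a1 and Cr2 included, the median position relative to the control mean was 0.88 in compost replicate 1 and 1.82 in compost replicate 2. On the brighter Cd40 probe these rats were nearly level, and on the dimmer one compost replicate 2 was higher, at 111 against 94.2. RT1-DOa was higher in compost replicate 1. What these orders mean for the members was not tested. Of 12 macrophage and monocyte genes 11 had a higher mean in compost (46.5% of all genes). Their median position was 1.20 in compost replicate 1 but 0.05 in compost replicate 2. Their summed intensity was 47190 and 33680 in the control rats and 76420 and 46400 in the compost rats. Cd68 read 1116 and 753 against 2069 and 844, and Csf1r 388 and 473 against 1178 and 386, so that 1 compost rat alone was high. The Fc receptor gene Fcgr3a was at 1.90 ± 0.59 (SE), and the complement genes C1qb and C1qc were at 0.64 ± 0.28 and 0.81 ± 0.45. Dendritic cell markers had values on all 4 arrays for 3 of 10 genes, with Siglech at 0.91 ± 0.40, Batf3 at 0.27 ± 0.37 and Itgae at -0.14 ± 0.31. Ccr7 passed the filter through the compost rats alone and so had to differ. It read 14.69 and 17.25 in the control rats and 31.84 and 33.68 in the compost rats, at least 1.84-fold higher.

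Of 12 genes that mark lymphoid follicles, 5 were well above background on all 4 arrays. All 5 had a higher mean in compost (46.5% of all genes) with groups apart (12.7% with compost above). Their median log2 difference was 1.04. Cr2 and Ccr7 of this list passed the filter through the compost rats alone. The summed intensity of the 8 tested genes was 11260 and 14050 in the control rats and 18510 and 35580 in the compost rats. Most of this sum in each rat came from a single gene, Ccl20, at 6531 and 9156 against 10790 and 23410. The B cell chemokine gene Cxcl13 read 135 and 190 in the control rats and 1233 and 1855 in the compost rats, and its receptor gene Cxcr5 was not well above background on 2 arrays. Ccr6 had a log2 difference of 1.13 ± 0.19 (SE). The follicle list shares the gene Cr2 with the B cell list and Ccr7 with the dendritic cell list. Its gene Gp2 was at -1.12 ± 1.55. Among plasma cell genes 5 of 6 had a higher mean in compost (46.5% of all genes). Mzb1 was at 1.69 ± 0.49, Jchain at 1.25 ± 0.41 and Prdm1 at 0.68 ± 0.21. The median of the plasma cell list was 0.91, and it was 0.59 without compost replicate 1 and 1.33 without compost replicate 2.

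T cell markers had a median log2 difference of 0.08 over 9 genes, which ran from -0.47 to 0.635 when 1 rat was left out. Cd3e was at 0.03 ± 0.35 (SE), Cd3d at 0.14 ± 0.48, Cd3g at 0.16 ± 0.30 and Cd5 at -0.26 ± 0.43. Cd2 was at 1.60 ± 0.23 and was well above background in 1 control rat. Of 11 enterocyte and epithelial genes 9 had a lower mean in compost, where 46.5% of all genes had a higher one. The median was -0.03, or -0.31 without compost replicate 2 and 0.06 without compost replicate 1. The brush border peptidase gene Anpep read 118700 and 95430 in the control rats and 67120 and 59900 in the compost rats, so that its groups were apart. Its log2 difference was -0.75 ± 0.21 (SE, adjusted p = 1.00 by limma, unadjusted p = 0.0176). Vil1 was at -0.27 ± 0.21, Fabp1 at -0.27 ± 0.19 and Fabp2 at -0.25 ± 0.24. Smooth muscle markers had a median of 0.16 over 4 genes, with Actg2 at 0.15 ± 0.19, Tagln at 0.19 ± 0.27 and Des at 0.10 ± 0.24.

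**Figure D4:**
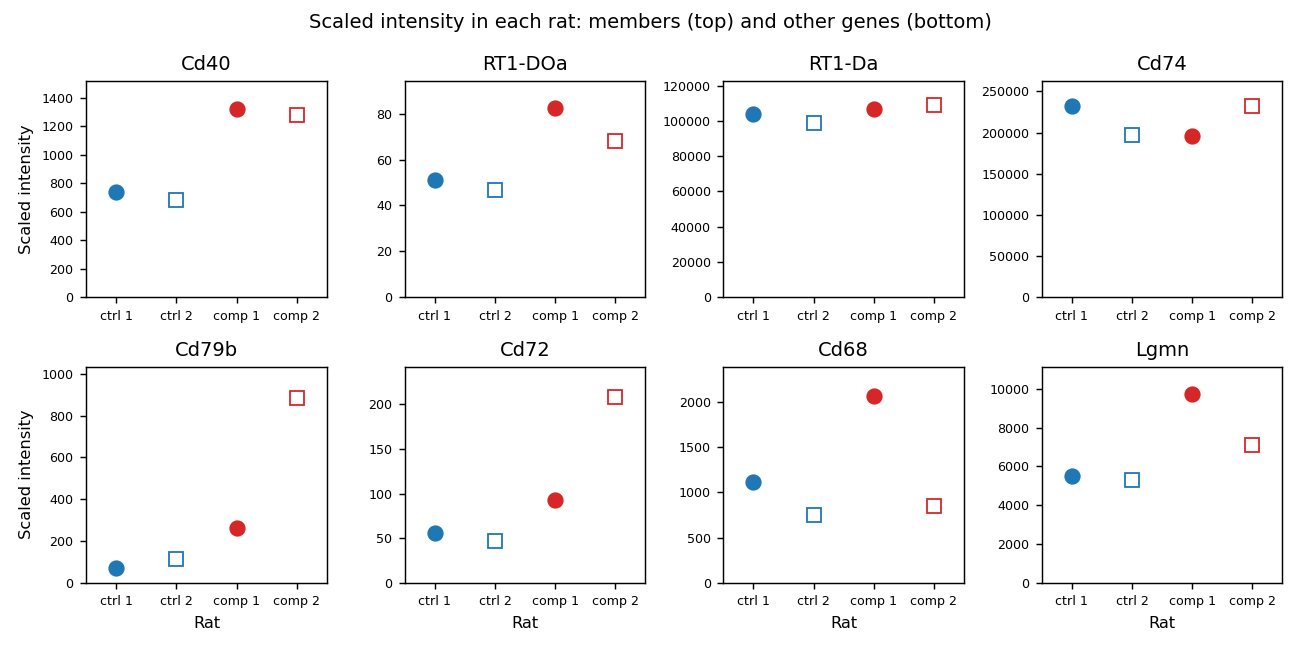
Scaled intensity in each rat (y axes start at 0; ctrl is control, comp is compost) for 4 members, with Cd40 and RT1-Da shown by their brighter probe, and for the B cell genes Cd79b and Cd72, the macrophage gene Cd68 and the protease gene Lgmn. Cd40 and RT1-DOa are higher in both compost rats, RT1-Da and Cd74 are level, Cd79b is highest in compost replicate 2 at 883 and Cd68 in compost replicate 1 at 2069.

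The genes whose pattern over the 4 rats was most like that of a member were found by the root mean square distance of centred log2 values, among 11485 named genes well above background on every array. Nearest to Cd40 were Ripk3, a kinase of necroptosis, at 0.07, Ccl21, a chemokine of lymphoid tissue, at 0.07 and Sh2d1a, a lymphocyte signalling adaptor, at 0.08. Nearest to Cd74 were Vamp2, Lrrc58 and Tm2d3, at 0.0044 to 0.014. Nearest to C2ta were Itgb1, Fam98b and Taf9, at 0.0095 to 0.012. Patterns with little variation lie close to many genes, and 4 rats are few, so the distances describe these arrays only.

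On each array between 66.5% and 71.0% of gene spots stood well above background. The median processed intensity was 80.8 to 113, highest in compost replicate 1. Over the probes tested, the compost arrays correlated at 0.9808 with each other, less than any pair across the groups (0.9811 to 0.9876). The control arrays correlated at 0.9865. After scaling, compost replicate 1 was the lowest rat on 10412 of the 28415 probes. All arrays lay on 1 slide, with the control rats in positions 1 and 2 and the compost rats in positions 3 and 4, so position and treatment cannot be told apart. The number of arrays limits the precision.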

How the data were processed

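RNA of 4 rats was labelled with Cy3 and read on 1-colour arrays. Per the file headers, the deposited processed intensity was written by Feature Extraction 9.1.3.1 (Agilent), also named in the submitters' processing notes, after detrending and background subtraction and with no scaling between arrays. The authors' value table held the same intensity, within 0.497% of the scanner value on every array, with column medians of 80.2, 79.4, 102 and 73.9. The deposited flags, of unit other, mark spots well above background, saturated or outlying.

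Here outlier spots were left out (31 probes), replicate spots were averaged as log2 values, and each array was scaled by subtracting its 75th percentile. The test, limma 3.58.1 in R 4.3.3, was two-sided and took the 28415 probes that stood well above background on 2 or more arrays, at 0.05 after Benjamini-Hochberg adjustment. The fit was also run on simulated data with independent noise, which does not test slide position or signal near background. A gene was represented by its brightest probe. Old names were updated through RefSeq's GRCr8 table (10835 probes by accession, 5201 by symbol, 3488 by synonym, and 21488 kept the array's name). An "at least" fold sets the compost mean against, on each control array, the higher of the probe's value and the lowest value well above background.

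The members, gene lists and tests were chosen with earlier results of these data known. Named genes were the genes of a list with the smallest p, up to 4 for a pathway and 3 for a cell type, with the first 2 markers of each cell type. Alternatives were normexp correction (offset 50), quantile and median scaling, other filters on dim probes, a variance trend, the replicate block, the authors' table, the mean of a gene's probes and leaving out each rat.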

Additional observations from a re-analysis of the deposited data

How the results depend on the processing

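Under all 12 alternatives run, 0 member probes were called. Over all probes, 1 was called with normexp background correction and 0 to 2 without 1 rat. Leaving out 1 rat gave 613 to 2938 probes with an unadjusted p under 0.05, against 913, and between 22.0% and 36.4% of probes with compost above control, since 3 arrays separate more readily. Member probes then numbered 9 to 10 for compost above control and 1 to 3 for an unadjusted p under 0.05, the lowest without control replicate 2. Cd74 lay at 0.0053 with normexp correction, 0.026 with quantile scaling and 0.030 with median scaling. Without 1 rat the log2 difference ran from -0.13 to 0.12 for Cd74, -0.011 to 0.25 for C2ta, -0.016 to 0.50 for RT1-Ba and -0.075 to 0.38 for RT1-DMa, and for RT1-Db1 from -0.094 to 0.18, -0.13 to 0.21 and -0.0092 to 0.22 on its 3 probes. List medians then ran from -0.47 to 0.635 for T cells, -0.084 to 0.20 for trafficking, -0.066 to 0.029 for the transcription machinery and -0.31 to 0.059 for epithelium, the last at 0.0115 with median scaling. They ran from 0.04 to 0.36 for the interferon gamma axis and 0.59 to 1.33 for plasma cells. The cause of these changes was not tested. Cd40, RT1-DOa, RT1-Bb and RT1-Da kept their direction under every alternative. With the replicate block, 0 probes were called, 901 had an unadjusted p under 0.05 and 2 member probes did. The labels do not say that a number pairs rats, and the deviations of same-numbered rats from their group means correlated at -0.036 over 28415 probes. Low signal limits RT1-DOa and the dim Cd40 probe.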
